A study of Homo sapiens with 6 samples.

Results

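The 9 genes described here are NFE2L2, which encodes the transcription factor NRF2, its inhibitor KEAP1, and 7 antioxidant genes known as NRF2 targets: NQO1, GCLC, GCLM, TXNRD1, SRXN1, ME1 and HMOX1. They were chosen by symbol, from what is known of the pathway, with earlier results of these data known. They are 9 of the 20263 gene identifiers in the count table. All 9 passed the filter on low counts and were tested among 12690 genes. RNA was sequenced from MV4-11, a human line derived from acute myeloid leukemia with a FLT3 internal tandem duplication and a KMT2A-AFF1 fusion, and the labels enter the genotype as WT. Cultures were kept for 24 h with venetoclax (VEN, 100 nM), an inhibitor of the survival protein BCL2, with cyclosporine A (CSA, 2.5 µM), a calcineurin inhibitor that binds cyclophilins, or with both drugs. These doses come from the growth protocol in the labels, while the treatment tag reads gavage, an animal route, and was set aside. The doses within the combination are not listed separately, and each of the 3 groups had 2 libraries. Nothing in the labels says that replicates came from separate cultures, so the tests measure the spread between these libraries, which may be technical. Untreated cells were not analysed here, so every difference below is between drug conditions and no gene can be called induced or repressed relative to resting cells. The cells are a single established line, and only messenger RNA was measured.

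NRF2 is held at a low level in unstressed cells because KEAP1, an adaptor of the CUL3 ubiquitin ligase, binds it and directs it to the proteasome. Oxidants and electrophiles modify cysteines of KEAP1, after which NRF2 accumulates, pairs with a small MAF protein and binds antioxidant response elements in the regulatory DNA of its targets. The regulation is largely at the level of protein stability, so the mRNA of NFE2L2 is not a measure of NRF2 activity. The targets make glutathione, regenerate thioredoxin and peroxiredoxins, supply NADPH, reduce quinones and degrade haem. In acute myeloid leukemia, high activity of this pathway has been linked to drug resistance.

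The promoter stretches of 3 targets are printed because they hold the core letters of the element through which NRF2 acts. Windows of 250 bases before to 50 after the transcription start were taken from RefSeq (GRCh38.p14). They were found for 8 of the 9 genes, as 11 windows, and none was matched for HMOX1. The letters TGACNNNGC were searched on both strands, and capitals mark the match below. The sequences run 5′ to 3′ on the strand of the gene.
GCLM (chr1:93909456-93909489, minus strand): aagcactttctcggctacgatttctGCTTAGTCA
TXNRD1 (chr12:104215655-104215713, plus strand): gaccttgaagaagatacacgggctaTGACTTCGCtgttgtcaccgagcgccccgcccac
ME1 (chr6:83431155-83431213, minus strand): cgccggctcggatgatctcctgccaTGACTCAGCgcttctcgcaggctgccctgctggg
Counted from the transcription start, the match began at −34 in GCLM, where it reads on the opposite strand, at −99 in TXNRD1 and at −137 in ME1. KEAP1 also had matches ahead of a start. By window, 5 of the 11 had a match upstream, against 10.91% of all 35116 windows. These belonged to 4 of the 8 genes with a window, for which no share over all genes was computed. The matches of KEAP1 and of a second TXNRD1 window lay within annotated exons of those genes. In GCLM, 1 base of the printed match lay in an annotated exon of that gene. The first TXNRD1 window and the ME1 window each held another match, at −8 and at 12, that reached or lay after the start. No match lay in the windows of NFE2L2, NQO1, GCLC or SRXN1, which says only that these letters are not in those 300 bases. The core of the element bound by C/EBP-ATF dimers, TGATGNAA on both strands, was in none of the 11 windows and in 3.62% of all windows. No binding was measured, and a match is a description of sequence.

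Total counts per library were 26567900 to 30738957, and the 9 genes took 0.0349% to 0.0707% of them. Venetoclax replicate 2 had the lowest share for the 9 genes and stood apart from the rest: 41.5% of its counts were of mitochondrially encoded genes, where the other 5 libraries had 7.41% to 15.2%. Between the venetoclax replicates, the median log2 ratio of replicate 2 to replicate 1 was 0.49 in the lowest of 4 classes of genes ordered by GC content and −0.58 in the highest. In the other groups the class medians were between −0.08 and 0.08. The main values that rest on the venetoclax group are therefore also given without that library, where venetoclax replicate 1 then stands alone and its spread is taken to be that of the other groups. All 8 myeloid leukemia markers examined were detected in every library (FLT3 at 608 to 997 unscaled CPM), and the T cell markers CD3D, CD3E and CD2, the haemoglobin genes HBB and HBA1, and EPCAM were at 0 in all 6. In each library 64.8% to 66.7% of counts between 1 and 20 were even, so low counts may carry more error than a counting interval covers.

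Levels below are in CPM, a gene's count relative to the total of its library, scaled by the trimmed mean of M-values (TMM), written as replicate 1 and replicate 2. Differences are log2 fold changes with their standard errors (SE) from edgeR's quasi-likelihood test over all 6 libraries, with p-values adjusted over all genes by Benjamini-Hochberg. NQO1 and ME1 were highest with the combination, in both libraries, and NFE2L2 was highest with venetoclax on this scale. HMOX1 and KEAP1 were lower in both combination libraries than in both CSA libraries. The libraries of these groups did not overlap for 47.2% of all genes, so the differing directions among the 9 genes are only described. None of these differences passed adjusted p under 0.05 in edgeR with all 6 libraries. In bulk RNA, fewer cells that express a gene and less of its RNA per cell cannot be told apart.

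**Figure D1:**
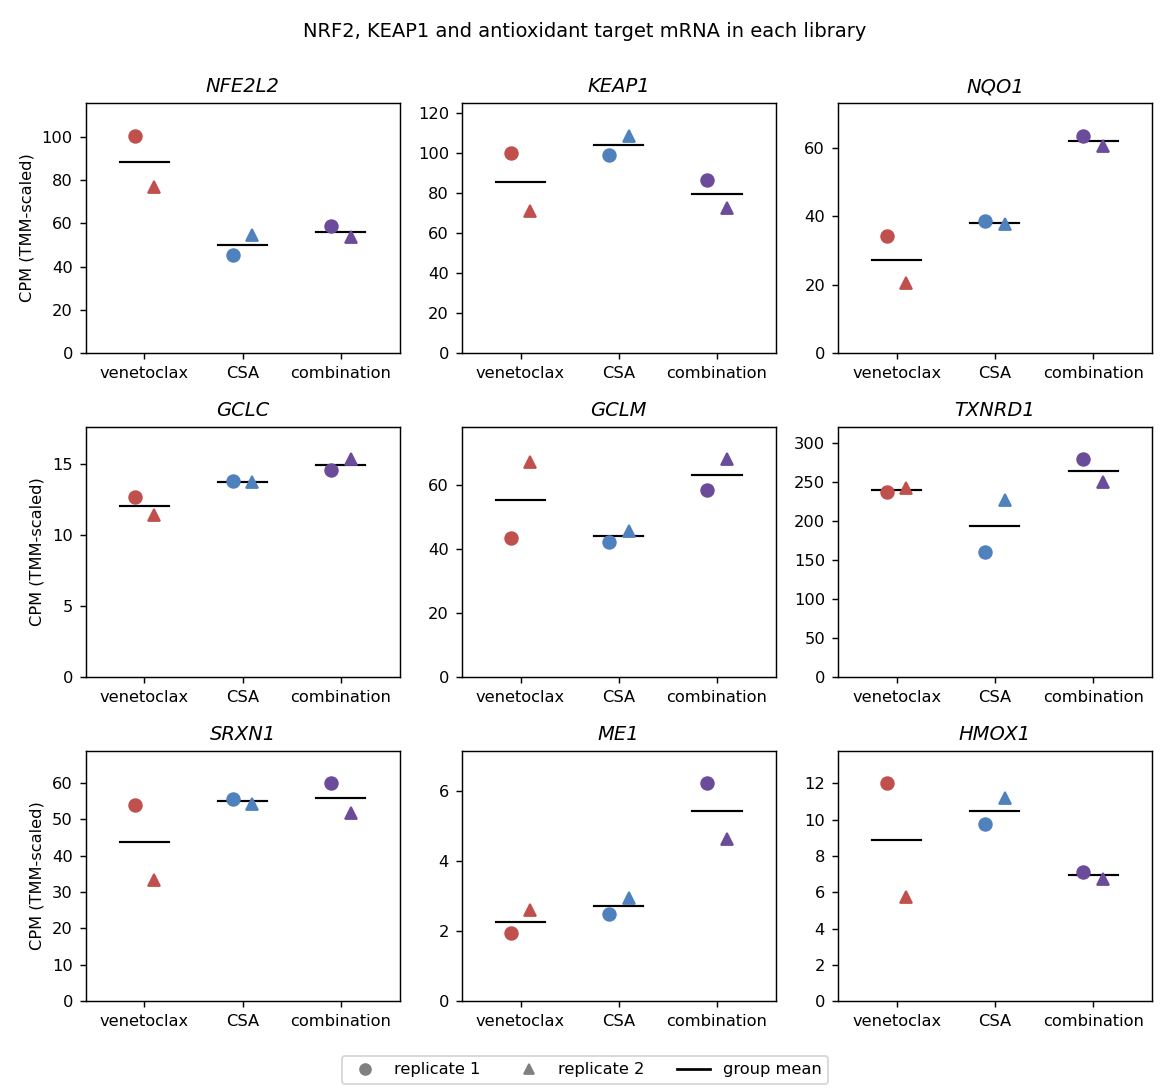
TMM-scaled CPM of the 9 genes in each of the 6 libraries (points, linear axes from 0, with the group mean as a line), by treatment group. NQO1 lies at 60.6 and 63.5 with the combination, above its other 4 libraries, and NFE2L2 lies at 76.5 and 100.5 with venetoclax, above its other 4.

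NFE2L2, on the minus strand of chromosome 2 (177227595 to 177392697, GRCh38), was at 100.5 and 76.5 CPM with venetoclax, 45.2 and 54.7 under CSA and 58.6 and 53.5 with both drugs. Both venetoclax libraries were above all others, while the CSA and combination ranges overlapped. The log2 fold change was 0.82 (SE 0.20) for venetoclax against CSA (adjusted p = 0.633 in edgeR). For the combination against venetoclax it was −0.66 (SE 0.20; adjusted p = 0.387 in edgeR), and for the combination against CSA 0.17 (SE 0.20), with 0.03 to 0.31 over the fits that left out 1 library. Without venetoclax replicate 2 the first 2 values were 1.00 (SE 0.15; adjusted p = 0.264 in edgeR) and −0.84 (SE 0.15; adjusted p = 0.128 in edgeR). The place of venetoclax replicate 2 depended on scaling: as unscaled CPM, with mitochondrial counts in the total, its NFE2L2 level was 50.3, equal to that of CSA replicate 1 (50.3), and that of replicate 1 was 111.6. With scaling by library size alone, venetoclax against CSA was 0.56 (SE 0.41). NFE2L2 shares 54 exonic bases with AGPS on the opposite strand and 1054 with AC019080.1 on its own, of which AGPS has an entry in the table. The sources used here do not say whether reads were counted by strand.

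KEAP1, on the minus strand of chromosome 19 (10486120 to 10503741), encodes the sensor that holds NRF2 down. Its levels were 99.9 and 71.1 CPM with venetoclax, 99.2 and 108.7 under CSA and 86.7 and 72.6 with both drugs. The combination libraries were below both CSA libraries (log2 fold change −0.38, SE 0.22) and within the venetoclax range (−0.10, SE 0.22, and −0.32 without venetoclax replicate 2). The second of these reversed to 0.11 with scaling by library size alone, to 0.17 without venetoclax replicate 1 and to 0.03 without combination replicate 2, so no direction is given for it. The ratio of NFE2L2 to KEAP1, per kilobase of exon within a library and so free of library scaling, was 0.633 and 0.677 with venetoclax, 0.287 and 0.317 under CSA and 0.426 and 0.464 with both drugs. The 3 groups did not overlap in this ratio, and the combination lay between the single agents. The ratio does not remove effects of GC content, which was 45.6% in NFE2L2 and 60.3% in KEAP1. Against BACH1, the repressor that competes with NRF2 for the same DNA elements, the ratio of NFE2L2 was 3.25 and 2.47 with venetoclax, 1.57 and 1.90 under CSA and 2.09 and 1.93 with both drugs.

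NQO1, on the minus strand of chromosome 16 (69706996 to 69726951), encodes a reductase that takes quinones to hydroquinones by transferring a pair of electrons, and is among the most widely used readouts of NRF2. The counts were 1005 and 389 with venetoclax, 1164 and 1259 under CSA and 2116 and 1666 with both drugs. In CPM these were 34.1 and 20.6, then 38.5 and 37.8, then 63.5 and 60.6. Both combination libraries were above all others, and both venetoclax libraries were below both CSA libraries. The log2 fold change was 1.18 (SE 0.26) for the combination against venetoclax (adjusted p = 0.256 in edgeR). Against CSA it was 0.70 (SE 0.26; adjusted p = 1.00 in edgeR), and for venetoclax against CSA −0.48 (SE 0.26). The difference from venetoclax was 0.87 (SE 0.12; adjusted p = 0.0806 in edgeR) and that from CSA 0.70 (SE 0.09; adjusted p = 0.127 in edgeR) when venetoclax replicate 2 was left out. Over every setting tried, the first lay between 0.87 and 1.59 and the second between 0.66 and 0.74. The difference between the single agents was −0.17 without that library and −0.89 without venetoclax replicate 1. An antisense transcript, AC092115.2, shares 575 exonic bases with NQO1 in GENCODE 29 and has no entry of its own in the table.

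Glutathione synthesis begins with glutamate-cysteine ligase, whose catalytic subunit is GCLC (chromosome 6, 53497341 to 53616970, minus strand) and whose modifier subunit is GCLM (chromosome 1, 93885205 to 93909456, minus strand). GCLC was at 12.7 and 11.5 CPM with venetoclax, 13.9 and 13.7 under CSA and 14.6 and 15.3 with both drugs. An unlisted transcript, AL033397.1, shares 529 of its exonic bases. The groups did not overlap in GCLC, but the differences were small: 0.31 (SE 0.18) for the combination against venetoclax and 0.12 (SE 0.18) against CSA. GCLM was at 43.6 and 67.2 CPM with venetoclax, 42.2 and 45.7 under CSA and 58.5 and 67.9 with both drugs. Both combination libraries were above both CSA libraries (0.52, SE 0.24), and the venetoclax replicates lay near either end of the range. GCLM has the lowest GC content of the 9 genes (37.3%), and its log2 ratio of venetoclax replicate 2 to replicate 1 was 0.62, near the 0.49 of the lowest-GC genes. For the combination against venetoclax GCLM stood at 0.19 (SE 0.24), at 0.54 (SE 0.15; adjusted p = 0.206 in edgeR) without venetoclax replicate 2, and at 0.45 after removal of the trend with GC content in each library. It reversed to −0.09 without venetoclax replicate 1. The modifier exceeded the catalytic subunit per kilobase in every library, with ratios of 5.47 and 9.35 with venetoclax, 4.87 and 5.32 under CSA and 6.39 and 7.06 with both drugs.

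Thioredoxin reductase 1, encoded by TXNRD1 (chromosome 12, 104215779 to 104350305, plus strand), passes electrons from NADPH to thioredoxin. It had the highest level per kilobase of the 9 genes in each group, with means of 35.7 CPM per kilobase with venetoclax, 28.9 with CSA and 39.4 with the combination. TXNRD1 was at 236.7 and 242.4 CPM with venetoclax, 160.4 and 227.4 under CSA and 278.6 and 249.5 with both drugs. The combination libraries were the 2 highest, by 0.14 (SE 0.21) over venetoclax and 0.45 (SE 0.21) over CSA, and the CSA replicates differed by more than either of these (0.50 in log2). Leaving out single libraries gave 0.06 to 0.22 over venetoclax, and over CSA 0.21 without CSA replicate 1 and 0.72 without CSA replicate 2. SRXN1, sulfiredoxin, repairs overoxidised peroxiredoxins (chromosome 20, 646615 to 653370, minus strand). SRXN1 was at 53.9 and 33.4 CPM with venetoclax, 55.6 and 54.2 under CSA and 59.8 and 51.7 with both drugs. The low venetoclax replicate 2 set the difference of 0.35 (SE 0.26) from venetoclax, which was 0.05 without it and 0.74 without venetoclax replicate 1, and the combination and CSA were nearly level (0.02, SE 0.26). A second entry, AL121758.1, shares 2292 exonic bases with SRXN1 on the same strand and held 0 to 10 counts per library, so the reads of this locus were almost all assigned to SRXN1.

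ME1, the cytosolic malic enzyme, makes NADPH while converting malate to pyruvate (chromosome 6, 83210389 to 83431071, minus strand). It had the lowest level per kilobase of exon of the 9 genes in each group, with counts of 57 and 49 with venetoclax, 75 and 98 under CSA and 207 and 127 with both drugs. The exact 95% Poisson intervals, which cover counting error only, were 43 to 74 and 36 to 65 with venetoclax, and 180 to 237 and 106 to 151 with the combination. In CPM ME1 was at 1.93 and 2.60, 2.48 and 2.94, and 6.21 and 4.62. Both combination libraries were above the other 4. The log2 fold change was 1.27 (SE 0.29) against venetoclax (adjusted p = 0.261 in edgeR) and 1.00 (SE 0.28; adjusted p = 1.00 in edgeR) against CSA. Without venetoclax replicate 2 the first was 1.49 (SE 0.31; adjusted p = 0.155 in edgeR), and over every setting it lay between 1.03 and 1.59. Venetoclax against CSA gave −0.27 (SE 0.29), which was −0.49 without venetoclax replicate 2, −0.06 without replicate 1 and −0.14 without CSA replicate 2.

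HMOX1, haem oxygenase 1, opens the haem ring to biliverdin, iron and carbon monoxide (chromosome 22, 35380361 to 35394214, plus strand). Like NQO1 it is a known NRF2 target, yet its levels took another course. HMOX1 was at 12.0 and 5.73 CPM with venetoclax, 9.75 and 11.2 under CSA and 7.14 and 6.76 with both drugs. Both combination libraries were below both CSA libraries (log2 fold change −0.59, SE 0.36) and between the 2 venetoclax libraries (−0.36, SE 0.36). Its replicate difference was the widest of the 9 in the venetoclax group: the log2 ratio of replicate 2 to replicate 1 was −1.06, for a gene of 58.1% GC. Without venetoclax replicate 2, HMOX1 differed from venetoclax by −0.78 (SE 0.18; adjusted p = 0.168 in edgeR), and without replicate 1 the sign reversed to 0.28. For the single agents, venetoclax against CSA, it was −0.23 with all libraries and reversed to 0.19 without venetoclax replicate 2.

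Set against each other within a library, per kilobase of exon, NQO1 exceeded HMOX1 by a ratio of 2.10 and 2.66 with venetoclax, 2.92 and 2.50 under CSA and 6.57 and 6.62 with both drugs. Both combination libraries were above all 4 single-agent libraries, and those 4 overlapped. The ratio of NQO1 to NFE2L2 was 0.623 and 0.495 with venetoclax, 1.56 and 1.27 under CSA and 1.99 and 2.08 with both drugs, lowest with venetoclax and highest with the combination. These ratios do not depend on library scaling, were chosen with the values known, and carry no test. NQO1 (46.0% GC) and NFE2L2 (45.6%) have nearly the same GC content, whereas HMOX1 and NQO1 do not.

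**Figure D2:**
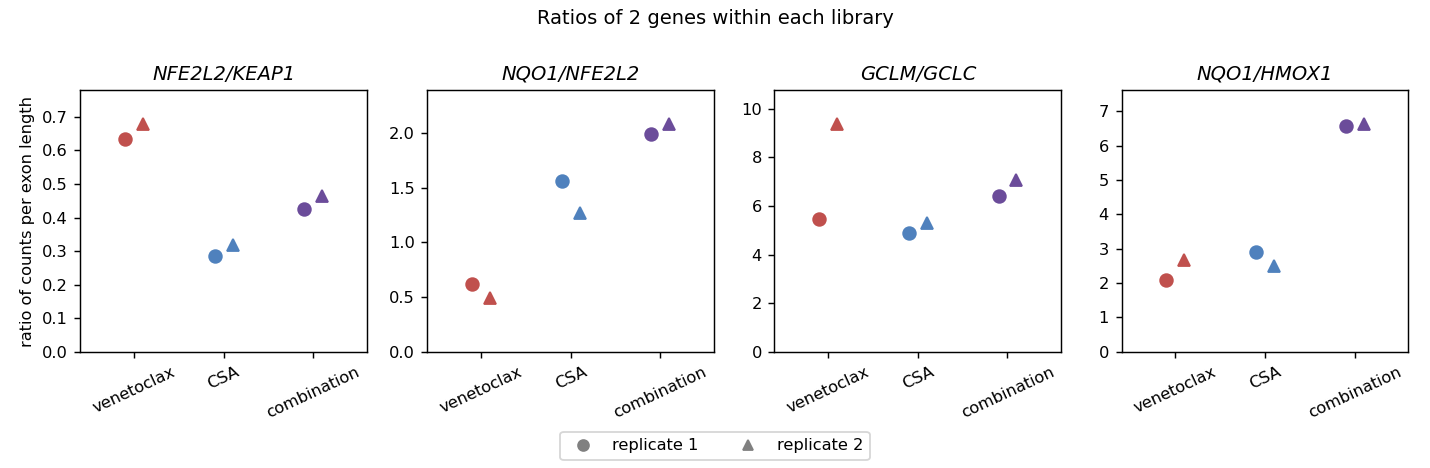
Ratios of pairs of the described genes per kilobase of exon within each library (points), by treatment group. The ratio of NQO1 to HMOX1 is 6.57 and 6.62 with the combination and 2.10 to 2.92 elsewhere, and that of NFE2L2 to KEAP1 is highest with venetoclax.

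The combination against venetoclax asks what CSA adds to venetoclax, and 6 of the 9 genes were higher and 3 lower, with a median log2 fold change of 0.19 against −0.01 over all genes (0.16 and 0.01 without venetoclax replicate 2). By edgeR with all 6 libraries 0 of the 9 were called, as were 0.0% of the 12690 genes, whose smallest adjusted p was 0.058. At an unadjusted p under 0.05 in edgeR, NQO1 and ME1 were higher and NFE2L2 lower, 3 of 9 where 10.8% of all genes passed. DESeq2 on the same libraries called 2.45% of all genes and 1 of the 9, NQO1, which rose by 1.18 (SE 0.30; adjusted p = 0.00673 in DESeq2). ME1 lay just above the threshold in that fit. Leaving out venetoclax replicate 2, edgeR called 0.379% of genes and 0 of the 9. With venetoclax replicate 1 alone in its group, DESeq2 called 3.79% of genes and 2 of the 9: NQO1, higher by 0.87 (adjusted p = 7.28e-05 in DESeq2), and NFE2L2, lower (−0.84, adjusted p = 0.00261 in DESeq2). Over all settings, edgeR, limma-voom and DESeq2 together, the adjusted p ran from 7.28e-05 to 0.969 for NQO1, from 0.00261 to 0.997 for NFE2L2 and from 0.05004 to 0.997 for ME1. The libraries did not overlap for 5 of the 9 (NQO1, GCLC, TXNRD1 and ME1 higher, NFE2L2 lower), and for 38.1% of all genes. Ordered from the highest log2 fold change of 12690, ME1 was at place 246, NQO1 at 291 and NFE2L2 at 11660.

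The combination against CSA, which shares its combination libraries with the comparison above, asks what venetoclax adds to CSA. In it 7 of the 9 genes were higher and 2, KEAP1 and HMOX1, lower (median 0.17 against 0.00 over all genes). By edgeR 0 of the 9 and 0.0% of all genes were called, with 0.129 the smallest adjusted p over all genes. At an unadjusted p under 0.05 in edgeR, 2 of the 9 (NQO1 and ME1) were higher, where 3.64% of all genes passed. DESeq2 called 0.473% of genes and 0 of the 9. With venetoclax replicate 2 left out, which touches this comparison only through the shared spread, scaling and filter, edgeR called 0.185% of genes and 0 of the 9, and DESeq2 1.98% of genes and 1 of the 9, NQO1 (0.70, adjusted p = 0.000121 in DESeq2, with 0.124 the lowest of the other settings). The libraries did not overlap for 7 of the 9: NQO1, GCLC, GCLM, TXNRD1 and ME1 were higher, and KEAP1 and HMOX1 lower. The share over all genes was 47.2%. From the highest of 12690, ME1 was at place 189, NQO1 at 400, GCLM at 720, TXNRD1 at 950 and HMOX1 at 12146.

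Between the single agents, venetoclax against CSA, 3 of the 9 genes were higher and 6 lower, with a median of −0.23 against 0.00 over all genes and of −0.03 without venetoclax replicate 2. By edgeR 0 of the 9 and 0.0% of all genes were called (smallest adjusted p 0.146). At an unadjusted p under 0.05 in edgeR, NFE2L2 alone of the 9 passed, higher, as did 4.8% of all genes. DESeq2 called 0.496% of genes and 0 of the 9. In the fits without venetoclax replicate 2, edgeR called 0.0% of genes and 0 of the 9, and DESeq2, with a venetoclax group of 1 library that has no spread of its own, called 0.827% of genes and 1 of the 9, NFE2L2, higher by 1.00 (adjusted p = 0.000313 in DESeq2, and up to 0.984 over all settings). The libraries did not overlap for 5 of the 9, with NFE2L2 and TXNRD1 higher and NQO1, GCLC and SRXN1 lower, and for 40.7% of all genes. NFE2L2 was at place 540 of 12690 from the highest.

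**Figure D3:**
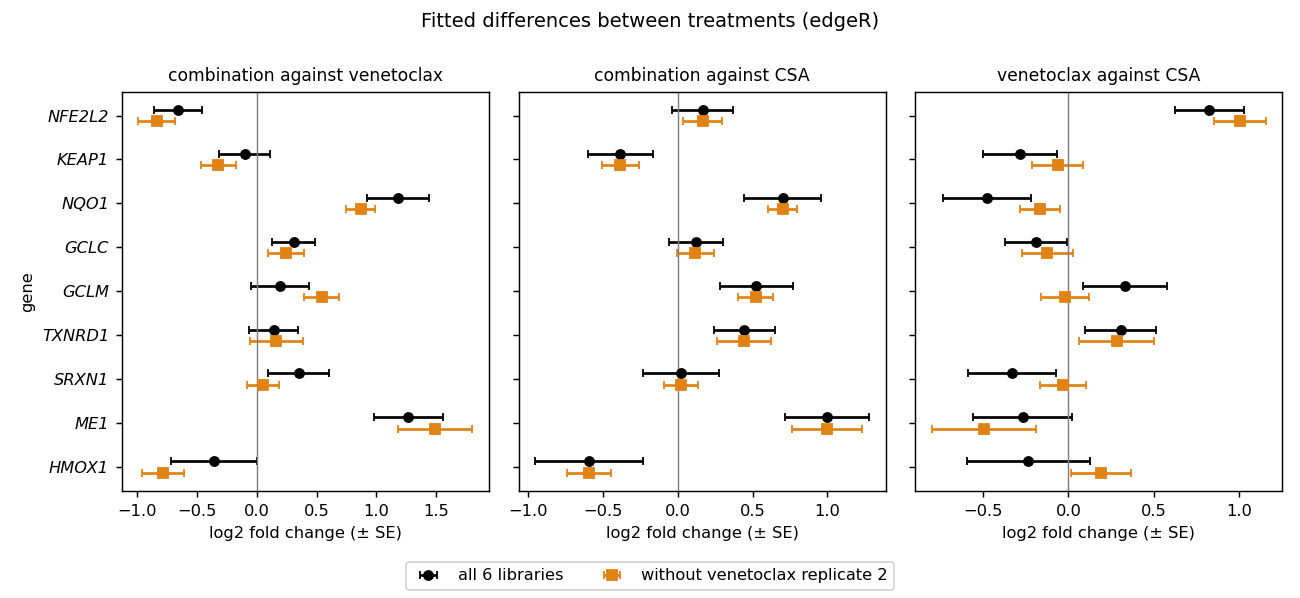
Log2 fold changes of the 9 genes in the 3 comparisons from edgeR with all 6 libraries and without venetoclax replicate 2 (points), with bars of 1 SE. NQO1 and ME1 lie above 0 in both comparisons with the combination, and HMOX1 lies below 0 in both (against venetoclax it was above 0 when venetoclax replicate 1 was left out, which is not drawn).

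How far each gene's venetoclax value rests on replicate 2 differed among the 9. The log2 ratio of replicate 2 to replicate 1 was above 0 in GCLM (0.62) and ME1 (0.42), the 2 of lowest GC content. It was −0.15 in GCLC, 0.04 in TXNRD1 and −0.39 in NFE2L2. In KEAP1, the gene of highest GC content (60.3%), it was −0.49, and in SRXN1, NQO1 and HMOX1 it was −0.69, −0.72 and −1.06. After removal of the GC trend, the combination against venetoclax was 1.23 for NQO1, 1.49 for ME1 and −0.46 for HMOX1. The part of the mitochondrial share in these values was not tested, beyond the fit without mitochondrially encoded genes, in which every call on the 9 genes and every direction stayed as it was.

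**Figure D4:**
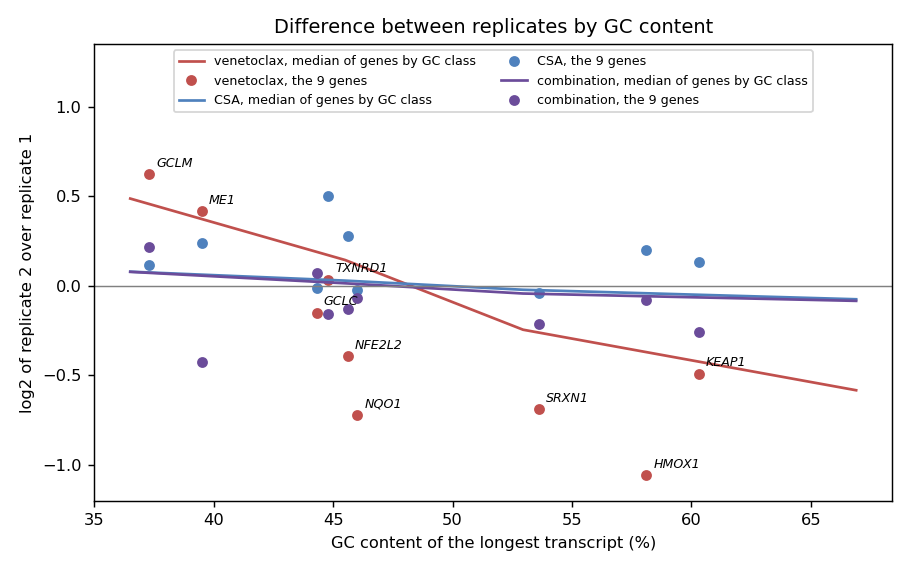
Log2 ratio of replicate 2 to replicate 1 (vertical) against the GC content of the longest transcript (horizontal, percent) for the 9 genes (points) and as the median of all genes in 4 classes of GC content (lines), by group. The venetoclax line runs from 0.49 to −0.58, and the lines of the other groups stay between −0.08 and 0.08.

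Other redox genes and regulators were read from 6 lists of 92 genes, by role. The lists were not limited to NRF2 targets. In these, too, edgeR with all 6 libraries called 0 genes in any comparison. Counts of list genes at an unadjusted p under 0.05 stand against 10.8% of all genes in the combination against venetoclax. Among regulators (14 of 15 tested), 9 were higher and 5 lower with the combination than with venetoclax (median 0.20, and 0.07 without venetoclax replicate 2). The one with an unadjusted p under 0.05 was MAFF, a small MAF partner of NRF2, named after its values were seen. MAFF was at 1.39 and 2.60 CPM with venetoclax, 5.26 and 5.61 under CSA and 6.36 and 8.47 with both drugs, so the CSA-containing groups were both above venetoclax. Its log2 fold change was 1.91 (SE 0.35) for the combination against venetoclax and −1.47 for venetoclax against CSA, and these were 2.41 and −1.97 without venetoclax replicate 2. SQSTM1, the autophagy adaptor p62 that sequesters KEAP1, was at 148.5 and 140.2 CPM with venetoclax, 146.7 and 149.9 under CSA and 164.4 and 205.4 with both drugs (0.36, SE 0.17, against venetoclax). CUL3, the ligase scaffold, was at 114.9 and 195.0 CPM with venetoclax, 95.9 and 103.5 under CSA and 98.2 and 110.2 with both drugs, the high value being venetoclax replicate 2. Against CSA the regulators were split evenly, 7 higher and 7 lower (median 0.01).

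Of the other glutathione genes (20 of 22 tested), 17 were higher and 3 lower with the combination than with venetoclax (median 0.27, and 0.20 without venetoclax replicate 2). An unadjusted p under 0.05 in edgeR was reached by 4 of the 20, where 10.8% of all genes passed, all higher: SLC7A11, the cystine importer, CHAC1, SLC3A2 and OPLAH. The last 2 fall outside the rule for named genes and were named after their values were seen. SLC7A11 was at 44.9 and 43.3 CPM with CSA, between its venetoclax and combination levels (0.95, SE 0.18, for the combination against CSA). Without venetoclax replicate 2 it was the 1 gene of these lists that edgeR called, in the combination against venetoclax. CHAC1, which degrades glutathione, was at 3.19 and 1.75 CPM with venetoclax, 9.55 and 8.64 under CSA and 9.84 and 18.8 with both drugs. The combination was 2.51 (SE 0.43) above venetoclax (adjusted p = 0.188 in edgeR; 2.17 without venetoclax replicate 2) and 0.65 (SE 0.40) above CSA. SLC3A2, the heavy chain partner of SLC7A11, was at 96.2 and 48.1 CPM with venetoclax, 138 and 95.9 under CSA and 175 and 132 with both drugs. It differed by 1.09 from venetoclax, and by 0.68 without venetoclax replicate 2. OPLAH, 5-oxoprolinase, was at 5.80 and 1.43, 10.1 and 7.50, and 14.6 and 8.47 CPM, and its difference of 1.64 was 1.00 without venetoclax replicate 2. The combination against CSA had 16 higher and 4 lower (median 0.16), and venetoclax against CSA 6 higher and 14 lower (median −0.18, and −0.06 without venetoclax replicate 2).

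In the thioredoxin and peroxiredoxin list (14 tested) 11 were higher and 3 lower with the combination than with venetoclax, but the median of 0.15 became −0.07 without venetoclax replicate 2, with 6 higher and 8 lower. SESN2, a stress-inducible sestrin, had the 1 unadjusted p under 0.05 in edgeR. It was at 7.80 and 5.25 CPM with venetoclax, 19.1 and 19.9 under CSA and 25.7 and 22.6 with both drugs. SESN2 was 1.88 (SE 0.25; adjusted p = 0.111 in edgeR) higher with the combination than with venetoclax, and −1.57 (SE 0.25) in venetoclax against CSA. The same values without venetoclax replicate 2 were 1.63 and −1.33. With CSA as the reference, the combination had 6 of these genes higher and 8 lower (median −0.07), with SESN2 at 0.31 (SE 0.24).

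Among 12 other genes of NADPH supply, 8 were higher and 4 lower with the combination than with venetoclax (median 0.20, and 0.02 without venetoclax replicate 2). PGD, of the pentose phosphate pathway, was at 546 and 480 CPM with venetoclax, 647 and 680 under CSA and 720 and 826 with both drugs (0.59, SE 0.16, against venetoclax, and 0.51 without venetoclax replicate 2). NNT, the mitochondrial transhydrogenase, had the opposite order: 133 and 147 CPM with venetoclax, 124 and 119 under CSA and 92.0 and 83.9 with both drugs. NNT differed by −0.67 (SE 0.15) from venetoclax (−0.60 without venetoclax replicate 2) and −0.46 (SE 0.15) from CSA, and both combination libraries were below the other 4. The mitochondrial malic enzyme ME3 was also lower with the combination than with CSA (−0.55, SE 0.22), unlike the cytosolic ME1. Another mitochondrial malic enzyme, ME2, named after its values were seen, was not lower in that comparison (0.13, SE 0.28).

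The quinone, haem and iron list (18 of 20 tested) had the highest median of the 6 in the combination against venetoclax, 0.41, with 16 higher and 2 lower. Without venetoclax replicate 2 the median was 0.27, with 14 higher and 4 lower. An unadjusted p under 0.05 in edgeR was reached by 5 of the 18, all higher, where 10.8% of all genes passed. AKR1C1, an aldo-keto reductase, was at 3.80 and 2.97 CPM with venetoclax, 5.42 and 5.46 under CSA and 9.21 and 9.60 with both drugs. It was 1.47 (SE 0.22) above venetoclax (1.31 without venetoclax replicate 2) and 0.79 (SE 0.21) above CSA, and its groups had the same order as those of NQO1. Its near-identical AKR1C neighbours can share reads, so its counts are uncertain. FTH1, the ferritin heavy chain, was at 351 and 409 CPM with venetoclax, 449 and 497 under CSA and 621 and 756 with both drugs (0.54, SE 0.18, against CSA), and it has processed pseudogenes that can share reads. The other 3, named after their values were seen, were SLC48A1, a haem transporter (0.89), CBR1, carbonyl reductase (0.90), and EPHX1, epoxide hydrolase (0.74), and without venetoclax replicate 2 these were 0.61, 0.68 and 0.56. The median was 0.17 in the combination against CSA and −0.43 in venetoclax against CSA, the second becoming −0.14 without venetoclax replicate 2.

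Genes that make or remove oxidants (9 tested) had medians of 0.11, −0.04 and 0.02 in the 3 comparisons. The first, with 6 higher and 3 lower, turned to −0.09, with 4 higher and 5 lower, without venetoclax replicate 2. NCF1, the p47 organiser of the phagocyte NADPH oxidase, was at 16.6 and 16.4 CPM with venetoclax, 15.8 and 16.7 under CSA and 33.5 and 44.3 with both drugs. The single agents were level, and NCF1 was 1.24 (SE 0.20) higher than with venetoclax (1.23 without venetoclax replicate 2) and 1.26 (SE 0.20; adjusted p = 0.508 in edgeR) higher than with CSA. NCF1 has near-identical pseudogene copies, so its counts are uncertain. NCF4, the p40 subunit, was at 176 and 156 CPM with venetoclax, 194 and 192 with CSA, and 234 in both combination libraries (0.50, SE 0.15, against venetoclax, and 0.41 without venetoclax replicate 2). CYBB, the catalytic subunit of this oxidase, was at 6.10 and 7.05 CPM with venetoclax, 4.20 and 4.23 under CSA and 7.14 and 8.32 with both drugs (0.87, SE 0.21, against CSA). BACH2, GSTM3 and BLVRA were listed at 0 in all libraries, and GPX3 and PIR did not pass the filter on low counts.

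**Figure D5:**
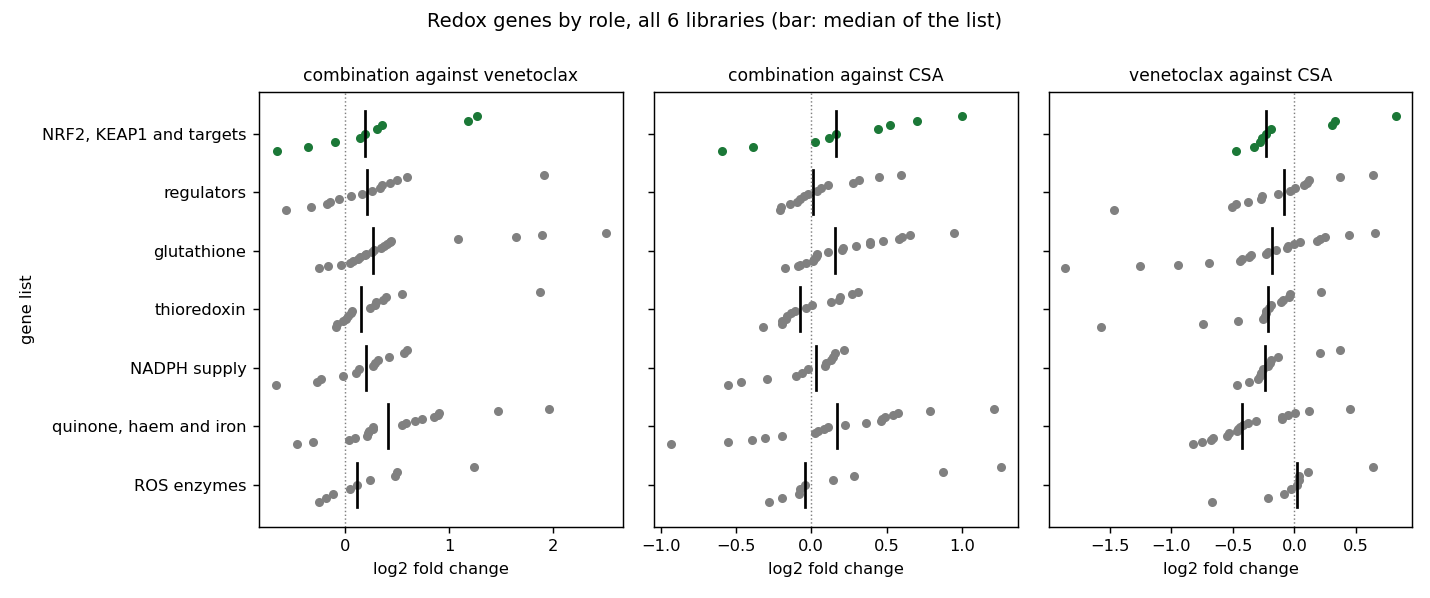
Log2 fold changes of the genes of each role list (points) and their medians (vertical lines) in the 3 comparisons, from edgeR with all 6 libraries. The quinone, haem and iron list has the highest median, 0.41, in the combination against venetoclax, and −0.43 in venetoclax against CSA.

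Across the 6 libraries, which share their groups, the genes whose log2 CPM followed NQO1 most closely among 9875 genes were TMEM248 (Pearson r = 0.996), LRG1 (0.995), TBXAS1 (0.995), HSPA5 (0.992) and WDR55 (0.991). A high r does not mean a like size of change. TMEM248 was at 85.1 to 93.2 CPM over the libraries and HSPA5 at 861 to 1089, where NQO1 was at 20.6 to 63.5. LRG1 had nearly the levels of NQO1: 34.7 and 20.6 CPM with venetoclax, 39.0 and 42.3 under CSA and 64.1 and 64.6 with both drugs. Those that followed HMOX1 were RBM15B (0.994), NEU3 (0.993), MORN1 (0.99), DNAAF5 (0.989) and GPR153 (0.988). RBM15B was at 130.9 and 88.4 CPM with venetoclax, 119.9 and 124.0 under CSA and 102.6 and 96.7 with both drugs. With 6 points in 3 groups such values are a description, and none of these 10 genes was chosen as an NRF2 target.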

How the data were processed

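Per the labels' protocols, Trizol RNA went into KAPA RNA HyperPrep libraries, sequenced as 150-bp pairs. The tools named are STAR, RSEM and DESeq2, and the build hg38, per the submitters' processing notes, which give no versions or roles. The authors deposited raw gene counts as whole numbers. A further 2 columns of the table match no sample label and were not used. The 2 libraries of a group differed beyond counting noise (chi-square over its degrees of freedom, 30.2 to 806), so each was counted.

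Genes kept by filterByExpr were TMM-scaled and tested with edgeR 4.0.16 (R 4.3.3; robust glmQLFit, glmQLFTest, two-sided) in 1 fit of all 6 libraries, with 3 residual degrees of freedom and a threshold of 0.05 on the adjusted p. The test was first tried on counts simulated from a common mean per gene, with changes put into the combination libraries for some genes. Those counts held no shift with GC content or mitochondrial share, so they cannot show how the test handles venetoclax replicate 2. Under library size alone the all-gene median log2 fold change was 0.26, −0.04 and −0.31, so changes are relative to the TMM scale. Alternatives were DESeq2 1.42.0, limma-voom (limma 3.58.1), other scalings, no filter, removal of mitochondrial genes or of the GC trend (loess, span 0.3), only the 4 libraries compared, a replicate block, and leaving out each library. DESeq2 without venetoclax replicate 2 was added after seeing the data.

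The 9 genes and the lists were chosen with earlier results of these data known. Named were the 9 genes and, per list and comparison, the 2 genes with the smallest p among those with a mean CPM of at least 5. For NQO1 and HMOX1 the 5 most alike genes were also named. Not every gene that the rule takes is described. Of 20263 identifiers, 20148 had a symbol and 20224 were found in GENCODE 29 (GRCh38), the source of coordinates, exon lengths and GC content.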

Additional observations from a re-analysis of the deposited data

How the results depend on the processing

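Of the 27 log2 fold changes (9 genes in 3 comparisons), 405 of the values recomputed under the alternatives kept direction and side of the threshold, 13 newly passed it and 14 reversed. NQO1 and ME1 stayed higher with the combination in both comparisons and NFE2L2 stayed higher with venetoclax under every alternative. The reversals in the combination against venetoclax were KEAP1 at 0.11 with library size alone and, over the fits that left out single libraries, KEAP1 at −0.32 to 0.17 (0.03 without combination replicate 2), GCLM at −0.086 to 0.54 and HMOX1 at −0.78 to 0.28, the highest KEAP1 and HMOX1 values and the lowest GCLM value without venetoclax replicate 1. In the combination against CSA, SRXN1 was at −0.017 with library size alone and −0.089 (without combination replicate 1) to 0.12 leaving out libraries. In venetoclax against CSA, GCLM was at −0.063 with library size alone and with the GC trend removed, TXNRD1 at −0.010 with library size alone, and leaving out libraries gave GCLM −0.020 to 0.61 and HMOX1 −0.87 to 0.19. The GCLM and HMOX1 reversals there came without venetoclax replicate 2, where DESeq2 gave −0.017 and 0.19. The cause was not tested. Against 0 genes called by edgeR in each comparison, the combination against venetoclax gave 311 with DESeq2, 15 with no filter, 43 with the GC trend removed, 490 with DESeq2 without venetoclax replicate 2 and 0 to 3426 leaving out single libraries. The combination against CSA gave 60 with DESeq2, 1 with limma-voom, 4 with no filter, 24 with only the 4 libraries compared, 256 with DESeq2 without venetoclax replicate 2 and 0 to 24 leaving out single libraries. Venetoclax against CSA gave 63, 2 and 107 with DESeq2, no filter and DESeq2 without venetoclax replicate 2, and 0 to 4385 leaving out single libraries. Of the 9 genes, the combination against venetoclax called 1 with DESeq2, 2 with DESeq2 without venetoclax replicate 2, and 0 to 2 leaving out single libraries (NQO1 and SRXN1, without venetoclax replicate 1). The combination against CSA called 1 with DESeq2 without venetoclax replicate 2, and 0 in each fit that left out a library. Venetoclax against CSA called 1 with DESeq2 without venetoclax replicate 2, and 0 to 6 leaving out single libraries (NQO1, SRXN1, NFE2L2, GCLM, KEAP1 and HMOX1, without venetoclax replicate 1). The 3426 and 4385 calls came without venetoclax replicate 1, so that venetoclax was replicate 2 alone, assumed to vary like the other groups. With the replicate block, 0 genes and 0 of the 9 were called in each comparison, and no call changed; deviations of same-numbered libraries correlated at 0.16 to 0.25, and the labels do not say that a number marks a shared culture. With 49 to 207 counts in a library, ME1 is the gene of the 9 whose value depth limits most.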
